A study of Danio rerio with 8 samples.

Results

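The Hox cluster genes of the zebrafish were taken as every gene whose symbol is hox, a letter from a to d, a number and a final a or b. A RefSeq gene table held 49 such genes in 7 clusters, and probes on the array matched 46 of them through their transcript identifiers. No probe was matched to hoxa5a, hoxc10a or hoxc11b. The 46 genes had 113 probes, 110 of which passed the filter on dim probes, and 38 of the genes had more than 1 probe. All 46 were measured well above background on all 8 arrays and make up 46 of the 23401 genes tested.

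The study asked how gene expression differs in zebrafish larvae after a transient knockdown of LIS1, which regulates the motor protein dynein and on which the migration of neurons depends. Total RNA came from whole larvae of the WIK background at 4 days post fertilization. The LIS1 morphant group had 4 pools of larvae injected with a morpholino, an antisense oligomer that blocks a transcript transiently, and the control group had 4 pools of larvae labelled wild type. Each pool held 10 larvae, the eggs of both groups had been pooled together, and morphants with a slight phenotype had been picked by their look and their seizure behaviour. The morphant group is therefore a selected one, and the labels do not say whether control larvae were injected or which copy of the LIS1 gene was targeted. A value from a whole larva cannot tell fewer cells of a type from less RNA per cell.

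Hox genes encode homeodomain transcription factors that lie side by side in clusters. Genes at one end of a cluster, with low paralogue numbers, are expressed in the hindbrain and the pharyngeal arches, those in the middle in the caudal hindbrain, the anterior trunk and the spinal cord, and those at the other end in the posterior trunk, the tail and the fins. Zebrafish carry duplicated clusters, so that the hoxb genes, for example, lie in a hoxba and a hoxbb cluster whose surviving pairs end in a and b.

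A level below is the log2 processed signal minus the 75th percentile of its array, so that 0 is the 75th percentile, and a change is the mean of the 4 morphant pools minus the mean of the 4 control pools. Between 84.6% and 88.8% of spots were well above background on the morphant arrays and between 83.8% and 84.9% on the control arrays. No saturated spot was found. On average, the 75th percentile of the signal reached 1598 ± 154 on morphant arrays and 1237 ± 178 on control arrays (SD, n = 4 each, exact permutation test, two-sided p = 0.0571, where 0.0286 is the smallest p this design allows). The median signal of the spike-in controls ran the other way, with 1959.5 ± 173 on morphant arrays and 2503 ± 287 on control arrays (SD, n = 4 each, exact p = 0.0571), and the part of this in changes scaled to the 75th percentile was not tested. The LIS1 copy pafah1b1a had a level of 2.57 ± 0.24 in morphants and 2.5 ± 0.32 in controls, and pafah1b1b one of 1.14 ± 0.39 in morphants and 1.17 ± 0.54 in controls (SD, n = 4 each, adjusted p of 0.792 and 0.945 in limma). The 2 probes of pafah1b1a changed by 0.07, in the brighter one, and by 0.65, and the 4 probes of pafah1b1b by -0.03 to 0.07. Neither copy passed by its brightest probe, and since a morpholino can act without lowering a message, this does not check the labels.

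Of 25 anterior and central Hox genes, 15 (60%) were higher in LIS1 morphant larvae. Among 21 posterior ones, 3 (14.3%) were higher, near the 16.4% of all genes tested. Of the 46 genes, 18 passed an adjusted p of 0.05 in limma as higher in morphants, which is 39.1% of them, against 16.4% of all genes tested. A single gene, hoxd11a, passed as lower, which is 2.17% of them, against 21.9% of all genes. The other 27 did not pass. The median change was 0.24 over the 46 Hox genes and -0.06 over all genes tested, and 33 Hox genes had a change above 0. The changes lay between -1.34 in hoxd11a and 1.39 in hoxa1a.

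By position from anterior to posterior, the counts were as follows. They stand beside 16.4% higher and 21.9% lower among all genes tested. In paralogue groups 1 to 3, 6 of 10 genes were higher and none was lower, with a median change of 0.58. In groups 4 to 8, 9 of the 15 genes measured were higher and none was lower, with a median change of 0.64. In groups 9 to 13, 3 of the 21 genes measured (14.3%) were higher and 1 (4.76%) was lower. Their median change was 0.02, with 10 genes below 0. Across the 46 genes, the change and the paralogue number had a Pearson correlation of -0.56 and a Spearman correlation of -0.58, and without hoxd11a these were -0.57 and -0.56. These correlations run across genes that share the same 8 arrays and are given as a description. The difference between the positions was not tested.

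**Figure D1:**
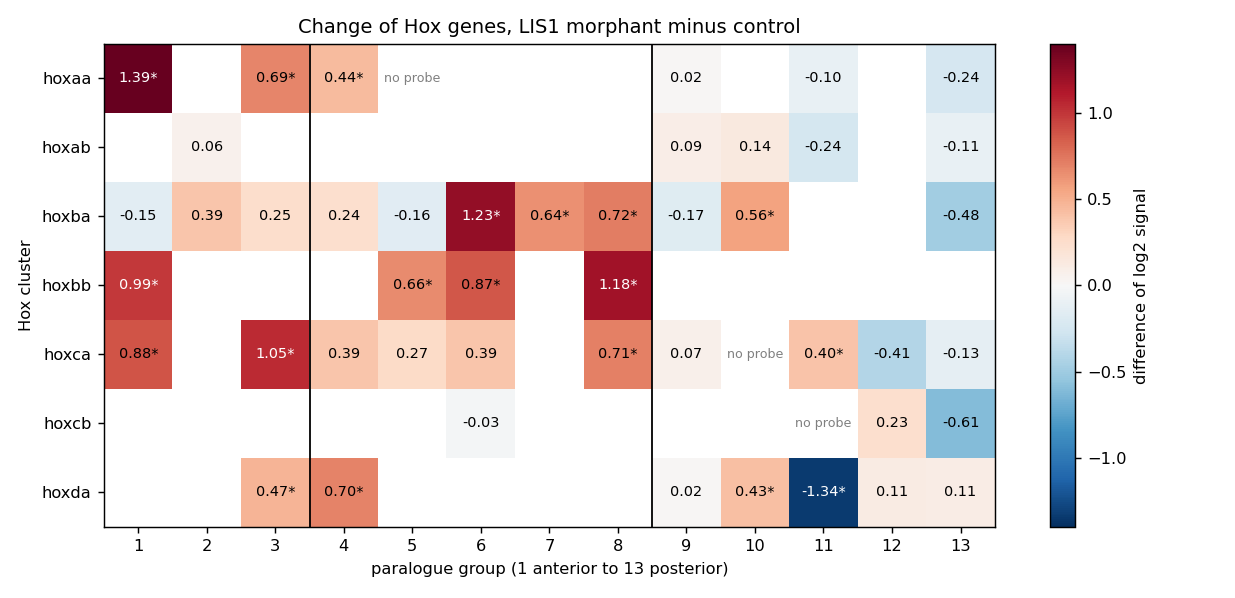
Change of each Hox gene (mean of 4 LIS1 morphant pools minus mean of 4 control pools, log2) by cluster, down the page, and by paralogue group from 1 to 13, across it. Asterisks mark genes past an adjusted p of 0.05 in limma, vertical lines separate groups 1 to 3, 4 to 8 and 9 to 13, and white cells are genes that the cluster does not hold or that had no probe. Of the 18 positive cells with asterisks, 15 lie in groups 1 to 8, and the cells of group 13 lie between -0.61 and 0.11.

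Among the group 1 genes, 3 of 4 were higher in morphants. The gene hoxa1a had levels of -4.84, -4.42, -4.60 and -4.85 in the morphant pools, against -6.35, -5.83, -5.93 and -6.16 in the control pools. The groups did not overlap, and the change of 1.39 (SE 0.16), a 2.62-fold higher signal, passed with an adjusted p of 0.000384. This was the largest rise among the Hox genes, at a low signal. With normexp background correction in place of the processed signal, and the 75th percentile, the change was 0.51, with an adjusted p of 0.423. With normexp and quantile normalization the change was 0.52 and passed (adjusted p = 0.00144). The gene hoxb1b, which patterns the hindbrain during gastrulation, had levels of 0.01, -0.01, -0.48 and 0.06 in morphants, against -1.25, -1.09, -1.19 and -0.83 in controls. Every morphant pool lay above every control pool, also the pool at -0.48, and the change was 0.99 (SE 0.16, adjusted p = 0.00198). For hoxc1a the morphant levels were -1.18, -1.48, -1.76 and -1.28 and the control levels -2.33, -2.36, -2.42 and -2.12. These groups were also apart, by 0.88 (SE 0.15, adjusted p = 0.00245).

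The 4th gene of group 1, hoxb1a, which gives the fourth hindbrain segment its identity and guides the facial motor neurons that arise there, did not pass. Its levels were -5.43, -5.11, -5.52 and -5.10 in morphants, against -5.87, -5.72, -4.47 and -4.50 in controls. The control pools lay on both sides of the morphant pools, and the change was -0.15 with a 95% interval of -0.93 to 0.63 (adjusted p = 0.762). This interval spans a change as large as 0.63 in the direction of the other group 1 genes. In group 2, hoxa2b, which sets the identity of the second pharyngeal arch, had a change of 0.06 (95% interval -0.17 to 0.30, adjusted p = 0.661). Its partner in the arch, hoxb2a, had a change of 0.39 (SE 0.14, adjusted p = 0.0584), and with the replicate number as a block its adjusted p was 0.043.

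Group 3 genes, which are active in the caudal hindbrain and the more posterior pharyngeal arches, were higher in 3 of 4 cases. For hoxc3a the levels were 0.16, 0.00, 0.01 and 0.30 in the morphant pools, against -1.24, -0.77, -0.79 and -0.92 in the control pools. No control pool reached the morphant range, and the change was 1.05 (SE 0.14, 2.07-fold, adjusted p = 0.00086). The gene hoxa3a had levels of -1.32, -1.15, -1.42 and -1.31 in morphants, against -2.34, -1.88, -1.87 and -1.85 in controls, a change of 0.69 (SE 0.14, adjusted p = 0.00629) without overlap. In hoxd3a the morphant pools were at 0.81, 0.65, 0.79 and 0.79 and the control pools at 0.28, 0.50, 0.19 and 0.17. Of its 5 probes, 4 passed as higher and 1 as lower in the fit over all probes. By the brightest of them, hoxd3a changed by 0.47 (SE 0.11, adjusted p = 0.0124). The call was lost with normexp and the 75th percentile (adjusted p = 0.0677) and with the mean of its probes, which changed by 0.28 (adjusted p = 0.0586). The remaining member, hoxb3a, had levels of 1.33, 0.96, 1.12 and 1.45 in morphants and 0.79, 1.03, 0.73 and 1.32 in controls. These ranges overlapped, and the change of 0.25 (95% interval -0.14 to 0.64) did not pass (adjusted p = 0.278). The other probe of hoxb3a changed by 0.45 and passed as higher in the fit over all probes (adjusted p = 0.0236).

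The central genes are expressed in the caudal hindbrain and the trunk. In group 4, which marks the most caudal hindbrain segments, hoxd4a had levels of -1.66, -1.97, -1.99 and -1.77 in morphants, against -2.52, -2.65, -2.53 and -2.49 in controls. The groups were separate by a change of 0.70 (SE 0.12, adjusted p = 0.00221). In the same group hoxa4a was higher by 0.44 (SE 0.11, adjusted p = 0.012), with 1.05 ± 0.07 in morphants and 0.62 ± 0.11 in controls (SD, n = 4 each). With normexp and the 75th percentile, hoxd4a and hoxa4a missed the threshold, at adjusted p of 0.0636 and 0.0504. The other members of group 4 did not pass, hoxc4a with a change of 0.39 (adjusted p = 0.0557, and 0.0301 with the replicate number as a block) and hoxb4a with one of 0.24 (adjusted p = 0.137).

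Group 5 genes take part in placing the pectoral fin and in the enteric nervous system. The morphant levels of hoxb5b were 0.91, 1.13, 1.0 and 1.29, against control levels of 0.20, 0.50, 0.52 and 0.48. All morphant pools were above all control pools, and the change was 0.66 (SE 0.13, 1.58-fold, adjusted p = 0.00491). The probe that stands for its duplicate hoxb5a gave 0.99, 0.80, 0.83 and 0.76 in morphants, against 0.98, 1.09, 0.92 and 1.04 in controls. Here the ranges overlapped, and the change was -0.16 (95% interval -0.40 to 0.07, adjusted p = 0.246). The gene hoxc5a had a change of 0.27 (adjusted p = 0.112).

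Groups 6 to 8, which are expressed in the spinal cord and the trunk mesoderm, held several of the largest changes. The gene hoxb6a had levels of 0.86, 0.60, 0.38 and 0.81 in the morphant pools, against -0.55, -0.59, -0.77 and -0.38 in the control pools. Its change of 1.23 (SE 0.14, 2.35-fold, adjusted p = 0.00043) separated the groups completely. Its duplicate hoxb6b had levels of -0.49, -0.58, -1.05 and -0.64 in morphants and -1.30, -1.76, -1.83 and -1.37 in controls. That gene was also apart between the groups, by 0.87 (SE 0.18, adjusted p = 0.00588). In group 6, hoxc6a, whose anterior limit lies near the start of the trunk, had a change of 0.39 (adjusted p = 0.0725), and hoxc6b one of -0.03 (95% interval -0.30 to 0.25, adjusted p = 0.883). The single gene of group 7, hoxb7a, was at -0.00 ± 0.02 in morphants and at -0.64 ± 0.17 in controls (SD), a change of 0.64 (SE 0.12, n = 4 each, adjusted p = 0.00333).

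All 3 genes of group 8 were higher. The levels of hoxb8b were -0.76, -0.90, -1.24 and -0.76 in morphants, against -2.03, -2.11, -2.20 and -2.05 in controls. The morphant range lay wholly above, with a change of 1.18 (SE 0.14, 2.27-fold, adjusted p = 0.00039). For hoxb8a the levels were 2.26, 2.22, 2.14 and 2.19 in morphants and 1.41, 1.58, 1.5 and 1.43 in controls. This gene had narrow groups, with SDs of 0.05 in morphants and 0.08 in controls, and a change of 0.72 (SE 0.10, adjusted p = 0.000885). In hoxc8a, known in mouse for its part in motor neurons at the level of the forelimb, the morphant pools were at 1.84, 1.74, 1.56 and 1.67, against 1.1, 0.91, 0.90 and 1.09 for the control pools. The pools did not overlap, and the change was 0.71 (SE 0.11, adjusted p = 0.00182).

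**Figure D2:**
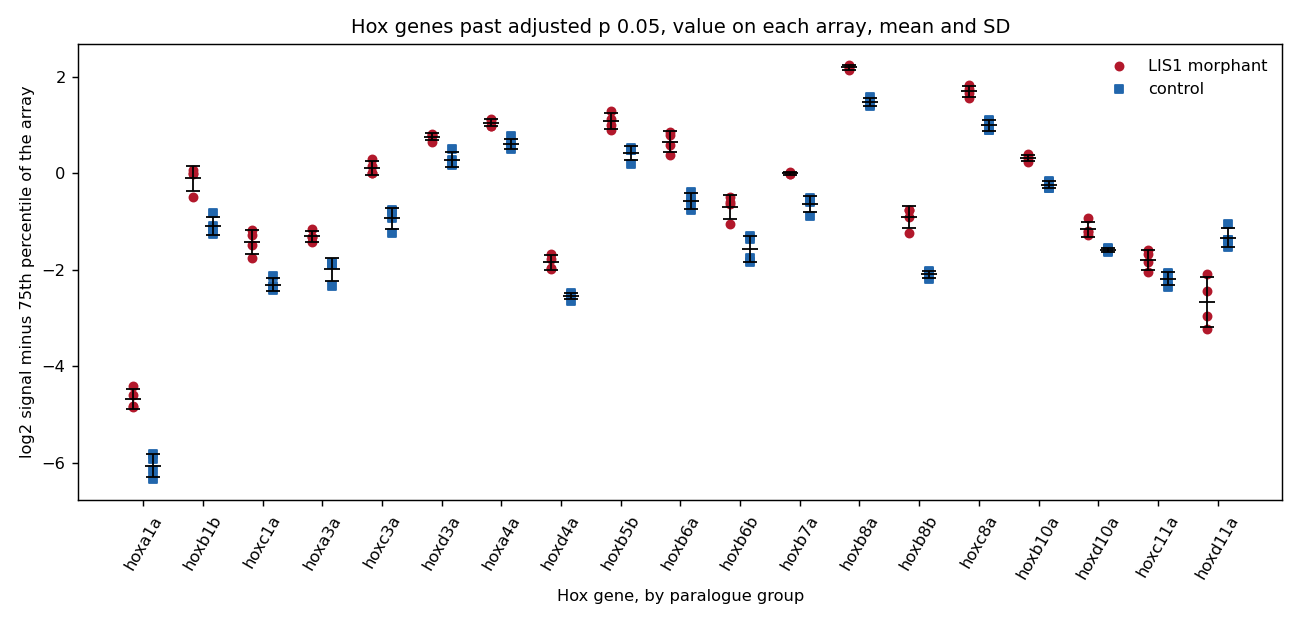
Level of the 19 Hox genes past an adjusted p of 0.05 (log2 signal minus the array's 75th percentile) on each array, ordered by paralogue group. Circles are the 4 LIS1 morphant pools, squares the 4 control pools, and bars the mean and SD. The morphant circles lie above the control squares in 18 genes, with a small gap in hoxc11a, and below them in hoxd11a. These genes were chosen by their adjusted p. Over all genes tested, the groups did not overlap in 16.7% with morphants higher and in 21.4% with morphants lower.

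In the posterior groups most genes did not pass, and the changes ran both ways. The 5 genes of group 9, which pattern the posterior trunk and the base of the fins, had changes between -0.17 and 0.09, and none passed. Further probes of hoxc9a changed by 0.40, which passed in the fit over all probes (adjusted p = 0.022), and 0.18. Those of hoxd9a changed by 0.25 and 0.40, of hoxb9a by -0.05 and of hoxa9a by -0.00, and none of these passed. The gene hoxa9a had levels of -1.05, -1.09, -1.31 and -1.28 in morphants, against -1.12, -1.08, -1.29 and -1.30 in controls. The pools interleaved, and the change was 0.02 (95% interval -0.24 to 0.28, adjusted p = 0.912). In group 10, hoxb10a was at 0.32 ± 0.07 in morphants and -0.24 ± 0.07 in controls, a change of 0.56 (SE 0.10, n = 4 each, adjusted p = 0.00308). The gene hoxd10a was at -1.16 ± 0.16 in morphants and -1.59 ± 0.04 in controls, a change of 0.43 (SE 0.11, n = 4 each, adjusted p = 0.0179), which missed the threshold with normexp and the 75th percentile (adjusted p = 0.163). The remaining gene of that group, hoxa10b, had a change of 0.14 (adjusted p = 0.301).

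Group 11 held the single Hox gene that passed as lower in the main fit. The gene hoxd11a, a posterior gene of the hoxda cluster that is expressed in the tail and the developing fins, had levels of -3.23, -2.43, -2.08 and -2.95 in the morphant pools, against -1.37, -1.38, -1.06 and -1.53 in the control pools. Every morphant pool was below every control pool, and the morphant pools spread more widely, with an SD of 0.51 against 0.20 in controls. The change was -1.34 (SE 0.25, adjusted p = 0.00368), and the signal was 0.396 of that in controls. The mean of its probes changed by -0.84 (adjusted p = 0.00611). In the other direction hoxc11a had levels of -1.67, -1.60, -1.85 and -2.05 in morphants and -2.36, -2.07, -2.24 and -2.09 in controls. The lowest morphant pool and the highest control pool nearly met, and the change was 0.40 (SE 0.14, adjusted p = 0.0478). This call was lost with the replicate block (adjusted p = 0.0597) and without any of 7 of the 8 arrays, all but morphant replicate 4 (adjusted p of 0.0573 to 0.121). The genes hoxa11a and hoxa11b had changes of -0.10 and -0.24 (adjusted p of 0.623 and 0.244).

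Groups 12 and 13 act at the posterior end of the body axis and in the distal fin. None of their 9 genes passed. Of the 6 genes of group 13, 5 had a change below 0, with hoxc13b at -0.61 (SE 0.21, adjusted p = 0.0507) and hoxb13a at -0.48 (SE 0.18, adjusted p = 0.0668). Both passed with the replicate number as a block, with adjusted p of 0.0114 and 0.0432. The fin genes hoxa13a and hoxa13b had changes of -0.24 (adjusted p = 0.152) and -0.11 (adjusted p = 0.523). On the arrays, hoxa13b was at -2.75, -2.40, -2.77 and -2.65 in morphants and at -2.48, -2.68, -2.48 and -2.50 in controls, with overlap. The gene hoxd13a, which also acts in the distal fin, was at -2.32, -2.47, -2.36 and -2.39 in morphants and at -2.33, -2.81, -2.37 and -2.46 in controls. Its change was 0.11 (adjusted p = 0.554), with overlapping pools. For hoxd12a the morphant levels were -1.19, -1.29, -1.53 and -1.66 and the control levels -1.36, -1.50, -1.56 and -1.68, an overlapping pair of ranges with a change of 0.11 (adjusted p = 0.557). The genes hoxc12a and hoxc12b had changes of -0.41 (adjusted p = 0.098) and 0.23 (adjusted p = 0.328), and hoxc13a one of -0.13 (adjusted p = 0.318). The other probe of hoxc12a changed by -0.90 and passed as lower in the fit over all probes (adjusted p = 0.0231). The mean of its probes also passed as lower (-0.66, adjusted p = 0.0254).

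Replicate numbers were also slide numbers, so that each slide and scan held morphant and control arrays of the same number, and the changes could be read within each slide. The median change of the anterior genes was 0.78, 0.67, 0.52 and 0.60 on slides 1 to 4. For the central genes it was 0.63, 0.63, 0.54 and 0.58. For the posterior genes it was 0.05, -0.00, -0.01 and -0.16. The anterior and central medians were thus above 0 on every slide, and the posterior medians lay near or below 0. Gene by gene, 25 of the 46 Hox genes had the morphant above the control on all 4 slides, against 27.6% of all genes tested, and 5 had it below on all 4, against 34.5%. With the slide as a block in limma, 19 Hox genes were higher and 3 were lower, against 18.9% and 25.4% of all genes, and the 3 lower were hoxd11a, hoxb13a and hoxc13b. In groups 1 to 8 the block gave 17 higher genes of 25.

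**Figure D3:**
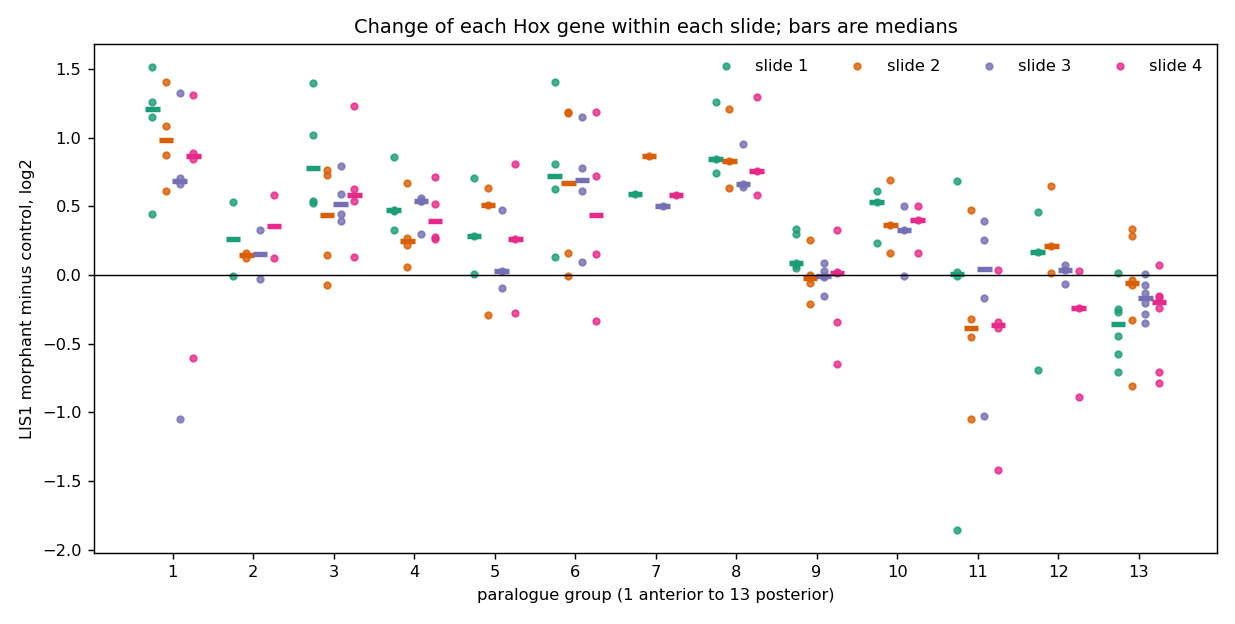
LIS1 morphant minus control (log2) of each Hox gene within each of the 4 slides, by paralogue group from 1 to 13. Points are genes, colours are slides, and bars are the slide's median in that group. The bars lie above 0 on every slide in groups 1 to 8 and 10, and below 0 on every slide in group 13.

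The counts by cluster stand beside 16.4% higher and 21.9% lower among all genes tested. All 4 genes of hoxbb were higher, with changes between 0.66 and 1.18. In hoxaa, 3 of 6 genes were higher, and the change was smaller in each gene than in the one before it along the cluster, a Spearman correlation of -1 with the paralogue number over 6 genes. In hoxca, 4 of 10 were higher, with a Spearman correlation of -0.73 over 10 genes. The hoxba cluster had 4 of 11 genes higher and a Spearman correlation of -0.06 over 11 genes. In hoxda, 3 of 7 were higher and 1 was lower. None of the 5 genes of hoxab passed, and their changes lay between -0.24 and 0.14. None of the 3 genes measured in hoxcb passed either. The clusters hold different positions: hoxab had 1 gene of groups 1 to 8 on the array and hoxbb had none of groups 9 to 13, so cluster and position cannot be told apart for these.

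The zebrafish duplicates allowed 10 pairs in which the a and the b copy of a gene could be set side by side. The difference of the copies within each array was compared between the groups with an exact two-sided permutation test over the 4 morphant and 4 control pools. In hoxb1 the b copy changed by 1.13 more than the a copy, in hoxb8 by 0.46 more and in hoxc12 by 0.64 more, each with p = 0.0286 in this exact test. In hoxb6 the b copy changed by 0.36 less than the a copy (b minus a, -0.36, exact p = 0.0286). The hoxb5 pair had a difference of 0.82 (exact p = 0.0286), which depends on the probe chosen for hoxb5a. The hoxb8 difference also depends on the probe. The other probe of hoxb8b changed by 0.77, and the 4 probes of hoxb8a by 0.71 to 0.75. These 5 pairs reached the smallest p possible, and after adjustment over the 10 pairs each had a p of 0.0571, so no pair passed. For the other 5 pairs the exact p was 0.0571 or more.

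Probes of a gene gave a second look at the same arrays. Tested one by one, 49 of the 110 Hox probes were higher in morphants and 3 were lower, against 17.4% and 21.0% of all probes tested. Of the 64 probes to genes of groups 1 to 8, 44 were higher and 1 was lower, and of the 46 probes to groups 9 to 13, 5 were higher and 2 were lower. All probes passed as higher in 9 of the 17 higher genes that had more than 1. The 4 probes of hoxb8a changed by 0.71 to 0.75, and the 2 other probes of hoxb1b by up to 1.13. The 49 higher probes and the 9 genes include the second probe of hoxa1a, which was well above background on 4 morphant arrays and 1 control array. It passed the filter only through the morphants, which favours a rise, so its call adds nothing. For hoxc8a 1 other probe changed by 0.71 and the remaining ones by 0.14 and 0.38, which did not pass.

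Probes disagreed in 6 genes, namely hoxa9a, hoxa13b, hoxb5a, hoxd3a, hoxd12a and hoxd13a. For hoxb5a the probe that stands for the gene changed by -0.16, while the others changed by 0.71 and 0.73 (adjusted p of 0.00245 and 0.00177). In hoxd3a, 4 probes changed by 0.47 to 0.78 and all passed as higher, while 1 probe changed by -0.99 and passed as lower (adjusted p = 0.00283). The probes of hoxa9a, hoxa13b, hoxd12a and hoxd13a lay between -0.18 and 0.14, and none passed. In hoxd11a both probes changed downwards, by -1.34 in the probe that stands for the gene and by -0.34 in the other, which did not pass (adjusted p = 0.235). In the annotation hoxa3a overlaps hoxa4a and hoxa5a, hoxd3a overlaps hoxd4a, hoxb3a overlaps hoxb4a, hoxb5a and hoxb6a, hoxb1b overlaps hoxb5b and hoxb6b, and hoxc3a overlaps 5 genes of its cluster, so a probe named for one of these may read a transcript of its neighbour. Including hoxb5a, 6 genes that did not pass held a probe that passed as higher, among them hoxc4a, whose 3 further probes changed by 0.88 to 1.09.

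**Figure D4:**
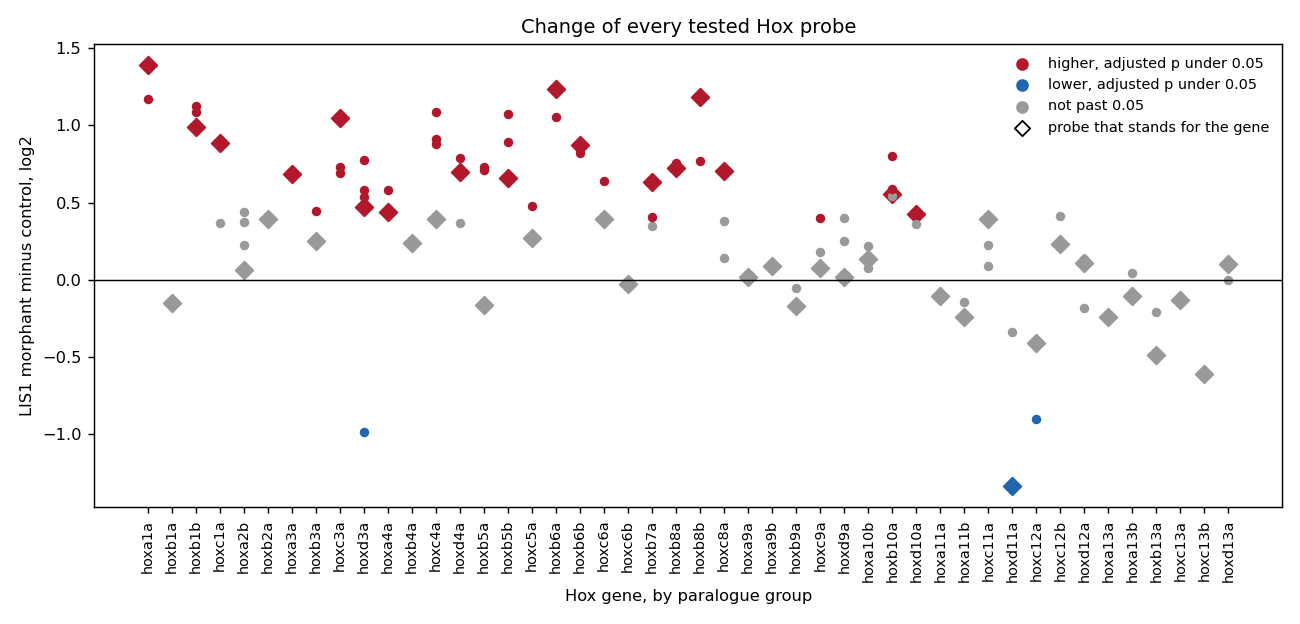
LIS1 morphant minus control (log2) of each of the 110 tested Hox probes, by gene in the order of paralogue groups. Diamonds are the probes that stand for their genes, and colours mark probes past an adjusted p of 0.05 in limma over all probes. Of the 49 higher probes, 44 lie between hoxa1a and hoxc8a, and the 3 lower probes belong to hoxd3a, hoxd11a and hoxc12a.

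Of 69 measured genes in 4 lists, most of which work with or upstream of Hox genes, 22 passed in either direction. This is 31.9%, against 38.3% of all genes tested. Of 12 measured cofactors of the pbx, meis and pknox families, which bind DNA beside Hox proteins, 1 was higher and 1 was lower, with a median change of 0.18. The higher one was pbx4, the main pbx partner in the early zebrafish hindbrain, at 1.02 (SE 0.28, adjusted p = 0.0203), although its 4 probes lay between -0.43 and 1.02 and their mean did not pass (0.37, adjusted p = 0.16). The lower one was pbx1b, at -0.78 (SE 0.15, adjusted p = 0.00429). Its other probe, well above background on 1 of 4 morphant arrays, changed by -5.05, and the mean of both by -2.91. That probe passed the filter only through the controls, which favours a fall, so neither value adds to the call. Retinoic acid turns on anterior Hox genes, and of 22 measured genes for its synthesis, transport, breakdown and receptors, 3 were higher and 5 were lower, with a median change of -0.03. Among them stra6, which takes up retinol, changed by -1.03 (adjusted p = 0.0014) and the receptor gene rxraa by -0.98 (adjusted p = 0.0143). The enzyme genes dhrs3a and aldh1a3, which act in retinoid metabolism, changed by 0.57 (adjusted p = 0.0211) and 0.44 (adjusted p = 0.0282). With normexp and the 75th percentile rxraa changed by -0.44 (adjusted p = 0.506), and dhrs3a and aldh1a3 did not pass either (adjusted p of 0.0777 and 0.607). Without morphant replicate 2, control replicate 2 or control replicate 3 dhrs3a missed the threshold (adjusted p up to 0.0597), and so did aldh1a3, also without morphant replicates 1 or 3 (adjusted p up to 0.076).

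The list of caudal, even-skipped and tail bud genes, several of which act on posterior Hox genes, had 2 higher and 1 lower member of 12. Its median change was 0.10. The 12 also hold pdx1 and gsx1, which are of none of these kinds and did not pass (adjusted p of 0.0587 and 0.533 in limma). The notochord gene tbxta changed by 1.21 (SE 0.24, adjusted p = 0.00473). The mesoderm gene tbx16 was not well above background on any control array. Its processed signal changed by 0.96 (SE 0.30, adjusted p = 0.0335), a size that the dim control signal leaves uncertain. The gene passed the filter only through the morphants, which favours a rise, so its place among the 2 higher members shows nothing about the list. It missed the threshold without any of 6 arrays, all but morphant replicate 1 and control replicate 4 (adjusted p of 0.0509 to 0.0798). Its change was 0.24 with normexp and the 75th percentile (adjusted p = 0.837) and 0.18 with normexp and quantile normalization (adjusted p = 0.148). In the deposited value table it was 0.25 (adjusted p = 0.0794). The signal gene wnt3a changed by -0.79 (adjusted p = 0.0191), a call lost in 4 of the 17 alternatives, with a change of -0.27 in normexp with the 75th percentile (adjusted p = 0.781). Of 23 measured polycomb and trithorax genes, which keep Hox genes off or on, 5 were higher and 4 were lower, with a median change of 0.03. The polycomb genes cbx7a and bmi1a were higher, by 1.55 (adjusted p = 0.0111) and 1.42 (adjusted p = 0.000131). The histone demethylase gene kdm6bb and the methyltransferase gene kmt2a, both linked to active Hox genes, changed by -1.42 (adjusted p = 0.00174) and -0.96 (adjusted p = 0.016). The call of kmt2a was lost with normexp and the 75th percentile (adjusted p = 0.0636).

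Genes chosen as markers of the regions in which Hox genes are, or are not, expressed were read from the same fit. Over all genes tested 16.4% were higher and 21.9% were lower, and the counts of these lists are read against those shares. Of 19 measured genes of the hindbrain list, 8 were higher and 3 were lower, with a median change of 0.27. Their summed signal was 16.9 to 18.9 times the 75th percentile in morphants and 13.9 to 14.8 times in controls. The higher ones included gbx1, at 0.84 (adjusted p = 0.00132), and mafbb, at 0.69 (adjusted p = 0.0354), and the lower ones epha4a, at -1.36 (adjusted p = 0.00218), and en2a, at -0.75 (adjusted p = 0.0191). Since en2a marks the midbrain and its boundary to the hindbrain, the counts of this list are not of the hindbrain alone. With normexp and the 75th percentile epha4a changed by -0.94 (adjusted p = 0.0665) and mafbb did not pass (adjusted p = 0.0955), and the mean of the probes of epha4a changed by -0.74. Without control replicate 3 en2a missed the threshold (adjusted p = 0.0523), and mafbb missed it without any array but morphant replicate 3 (adjusted p of 0.0557 to 0.0893). Spinal cord genes had 5 higher and 5 lower members of 22, shares near those of all genes, with a median change of 0.00 and sums of 13.6 to 15.5 in morphants and 13.8 to 15.1 in controls. In this list pax2b and the motor neuron gene mnx1 were higher, by 1.46 (adjusted p = 0.00354) and 0.87 (adjusted p = 0.000553). The motor neuron gene lhx3 was lower, with a change of -0.93 (adjusted p = 0.00231), which was -0.37 with normexp and the 75th percentile and did not pass (adjusted p = 0.673).

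The forebrain and midbrain list was chosen for regions in front of the Hox domain, although some members, such as pax6a and pax6b, are not limited to them. It had 1 higher and 8 lower members of 24, against 16.4% higher and 21.9% lower of all genes. Its median change was -0.37, with sums of 21.2 to 28.0 in morphants and 31.1 to 33.0 in controls. The largest fall with a call was that of emx2, at -0.82 (adjusted p = 0.0115), followed by pax6b, at -0.62 (adjusted p = 0.0404, and 0.0849 with the slide as a block). The call of emx2 was lost with normexp and the 75th percentile (-0.54, adjusted p = 0.254) and with the mean of its probes (-0.48, adjusted p = 0.22). The call of pax6b was also lost without any 1 of morphant replicates 2, 3 and 4 and control replicates 2 and 4 (adjusted p of 0.0664 to 0.101). The higher one was dmbx1a, at 2.08 (adjusted p = 0.0115), which was well above background on 3 of 4 control arrays and changed by 0.58 with normexp and the 75th percentile (adjusted p = 0.379). This gene passed the filter only through the morphants, which favours a rise, so its place as the 1 higher member shows nothing about the list. Fin genes had 1 higher and 4 lower members of 13, beside the same shares of all genes, with a median change of -0.29. Their sums were 48.6 to 80.9 in morphants and 99.6 to 109 in controls. These sums rest mostly on and2, and3 and and1, the brightest of the list in controls, with mean levels of 5.66, 4.68 and 3.34. Of the 13 genes, 6 had a change above 0. Genes for the actinodin proteins of the fin fold, and3 and and2, were lower, with changes of -0.93 (adjusted p = 0.0275) and -0.90 (adjusted p = 0.00902), while hand2, which patterns the pectoral fin bud, was higher by 0.60 (adjusted p = 0.00405). The call of and3 was lost without any 1 of morphant replicates 2 and 4 and control replicates 1, 2 and 4 (adjusted p of 0.0514 to 0.0713). A single member of each of these last lists was below background on every array. Beside these medians, of 0.27 in the hindbrain list, 0.00 in the spinal cord list and -0.29 in the fin list, the anterior, central and posterior Hox medians were 0.58, 0.64 and 0.02. The part of these regions in the Hox results was not tested.

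**Figure D5:**
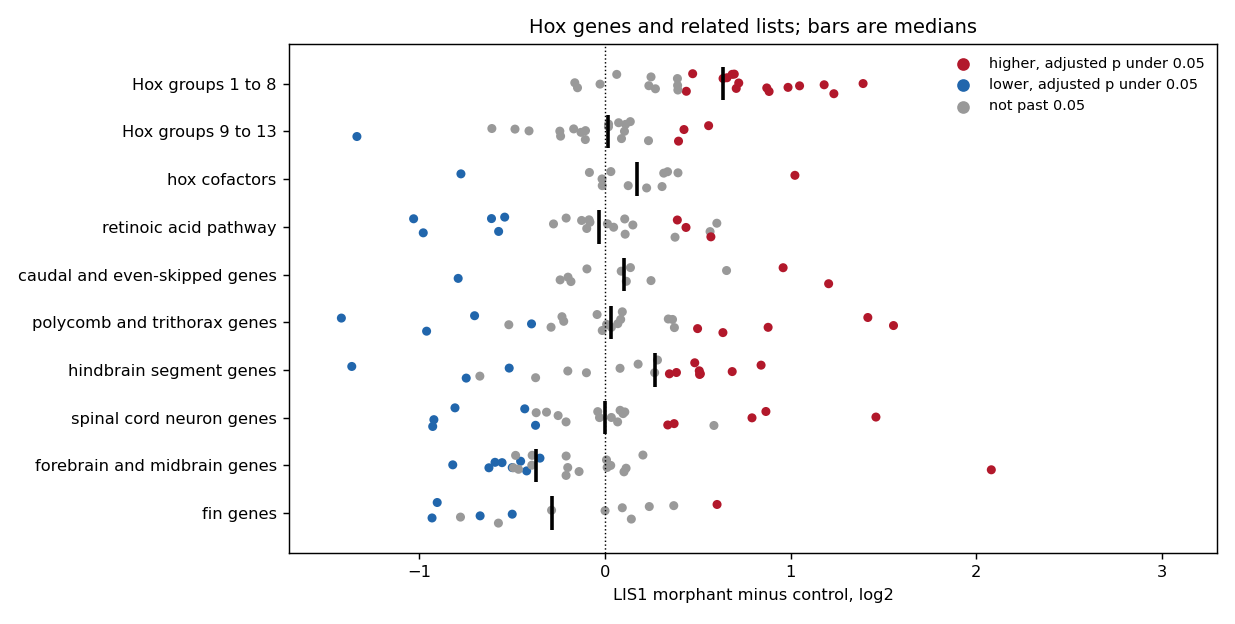
LIS1 morphant minus control (log2) of each gene of Hox groups 1 to 8, Hox groups 9 to 13 and the 8 related lists. Points are genes, coloured where they passed an adjusted p of 0.05 in limma, and bars are medians. The bar of Hox groups 1 to 8 lies at 0.64, those of the hindbrain list at 0.27 and of the forebrain and midbrain list at -0.37.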

How the data were processed

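Cy3-labelled RNA of 8 pools, 4 LIS1 morphant and 4 control, was hybridised to 1-colour arrays, 1 array a pool. The labelling protocol names mouse arrays, whereas the file headers give a zebrafish design. The deposited scanner files hold intensity values made with Agilent Feature Extraction per the file headers, namely a background-subtracted processed signal and raw median spot and background signals, without normalization across arrays. Log2 values stand in the deposited value table, with column medians of 8.13, and how the authors made them is not given in the sources used here. As 6 of its 8 columns matched the scanner file of a different sample within their group, it served only as an alternative.

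From the processed signal, log2 was taken and each array's 75th percentile subtracted. Control spots and outlier spots were left out, which left 43603 probes, each averaged over its spots. Probes were kept if well above background on all 4 arrays of a group, as 36708 were. Probes were named by transcript identifier through a RefSeq table of the assembly GRCz12tu, used for names and neighbours only, which named 25069 probes. A gene was represented by its brightest probe (mean of the 8 arrays). The comparison used limma 3.58.1 in R 4.3.3 (lmFit, eBayes), with Benjamini-Hochberg adjustment over 23401 genes and a threshold of 0.05. Adjusted p-values of single probes come from the same fit over all probes. Intervals are 95% intervals. The script was tested on simulated data. The precision is limited by the number of arrays. The replicate number was shared by arrays of 1 slide and scan. Deviations of same-numbered arrays correlated (0.454, 0.159, 0.322 and 0.283), and so did those of morphant replicate 3 and control replicate 2 (0.283). The number was taken as a pairing only in the replicate block and in the differences within slides. The main fit and the permutation tests did not use it.

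The Hox genes and the related lists were chosen with earlier results of these data known. Values on every array were given for up to 12 called Hox genes a direction by size, for genes whose probes disagreed in sign and for the 2 genes with the highest mean signal that did not pass. Of each list up to 2 called members a direction were named. The levels of hoxc11a and hoxb1a on every array were added after their values were seen. A single list member that this rule names is not reported here. Alternatives were other scalings, normexp with offset 50, other filters, other probe rules, the replicate block, the value table and each array left out.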

Additional observations from a re-analysis of the deposited data

Results flagged for a closer look

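Each group of 4 pools of each Hox gene was searched for a pool whose gap to its nearest neighbour exceeded Dixon's critical value as a share of the group's range. This held in 6 of 92 groups, where chance alone gives about 1 in 20. In morphants, hoxb1b was at -0.48 in replicate 3, with the others between -0.01 and 0.06, and hoxd3a was at 0.65 in replicate 2, with the others between 0.79 and 0.81. In controls, hoxa3a was at -2.34 in replicate 1, with the others between -1.88 and -1.85, and hoxb5b was at 0.20 in the same replicate, with the others between 0.48 and 0.52. Both control values lay farther from the morphant range than those of the other controls. Also in controls, hoxa13b was at -2.68 in replicate 2, with the others between -2.50 and -2.48, and hoxc9a was at 0.26 in replicate 4, with the others between -0.29 and -0.24.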

How the results depend on the processing

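Of the 18 higher Hox genes, 12 passed as higher in all 17 alternatives run gene by gene, and hoxd11a passed as lower in all 17. The count of higher Hox genes lay between 12 (normexp, 75th percentile) and 21 (median scaling) over these alternatives, and between 17 and 19 when 1 array was left out. The count of lower ones was 2 with probes above background on all 8 arrays, and 3 with the mean of the probes of a gene and with the replicate block. When 1 array was left out it was 1 to 2, and it was 2 without LIS1 morphant replicate 3 or without control replicate 4. Taking every probe by itself gave 49 higher and 3 lower of 110 probes, and a median change of 0.39. The replicate block gave 10364 calls among all genes. Among all genes, 3045 passed with normexp and the 75th percentile and 14119 of 36708 probes passed one by one, against 8963 genes, and 6791 to 8909 passed without 1 array. The median change of groups 1 to 8 was 0.71 with median scaling, 0.51 with normexp and the 75th percentile, 0.52 with normexp and quantile normalization, 0.52 with the mean of the probes, and 0.55 to 0.67 without 1 array. The median over all Hox genes was 0.22 to 0.30 and that of groups 9 to 13 -0.05 to 0.01 without 1 array. For hoxb5a the mean of its probes changed by 0.43 (adjusted p = 0.0141), against -0.16 for the probe used. That comes from its 2 other probes. Of 27 list genes that the naming rule chose, 11 passed in every alternative run, and 13 missed the threshold with normexp and the 75th percentile. The cause of the other shifts was not tested.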

Other observations

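The control pools of hoxb1a fell into a pair at -5.87 and -5.72 and a pair at -4.47 and -4.50, while the 4 morphant pools lay between -5.52 and -5.10. Within the slides its change was 0.45, 0.61, -1.04 and -0.61. The control pools of hoxc12a also formed pairs, with replicates 1 and 4 both at -4.04 and replicates 2 and 3 at -4.65 and -4.60, while the morphant pools lay between -4.93 and -4.63. The pairs of the 2 genes hold different replicates.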
